A study of Rattus norvegicus with 9 samples.

Results

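The genes described are 10 core genes of the Notch pathway, taken by symbol from a table of 18924 rat genes: the receptors Notch1, Notch2 and Notch3, the ligands Jag1, Jag2 and Dll1, and the target genes Hes1, Hey1, Hey2 and Heyl. All 10 were found. They were measured by poly-A selected RNA sequencing of primary chondrocytes, the cells that build cartilage matrix, taken from the cartilage of rats of the strain labelled SD and used at passage 1 or 2. Each of 3 groups of 3 libraries had 24 h of culture with rat plasma: plasma alone (RP), plasma and thrombin (RPT), or plasma, thrombin and a further inhibitor given no name in the labels (RPTi). Plasma was therefore common to every group, there was no group without it and none with the inhibitor but no thrombin. Nothing in the labels tells separate animals or cultures from repeat preparations, so p-values reflect only how far these libraries spread, and that spread may be technical.

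Notch receptors are single-pass membrane proteins that are activated by ligands on neighbouring cells. Binding of a Jagged or Delta-like ligand exposes the receptor to ADAM proteases and then to gamma-secretase, and the released intracellular part joins the DNA-binding protein RBPJ and a Mastermind coactivator at target genes. HES and HEY proteins, encoded by classic target genes, are transcriptional repressors. In cartilage, Notch signalling is known for restraining early chondrocyte differentiation and for a role in joint maintenance and osteoarthritis. RNA counts do not measure receptor cleavage.

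The promoters of the target genes are shown first, because Hes1 and Hey2 moved in opposite directions with thrombin and both hold the letters that RBPJ is known to bind. The sequences come from RefSeq (GRCr8, another build than the Rnor_6.0 of the counts), which held an entry for 9 of the 10 genes; Hey1 was the one without. Each is the 250 bases before the annotated start, 5′ to 3′ on the gene's strand, with matches to TGGGAA or GTGGGAA on either strand in capitals. Their positions are chr11:84213046-84213295 on the minus strand for Hes1, chr1:28640850-28641099 on the plus strand for Hey2 and chr5:140793021-140793270 on the plus strand for Heyl.
Hes1: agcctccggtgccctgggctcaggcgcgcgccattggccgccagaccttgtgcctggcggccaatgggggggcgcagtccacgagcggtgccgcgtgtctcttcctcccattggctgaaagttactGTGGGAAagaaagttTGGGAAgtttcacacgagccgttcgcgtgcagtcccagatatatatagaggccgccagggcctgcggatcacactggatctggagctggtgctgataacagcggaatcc
Hey2: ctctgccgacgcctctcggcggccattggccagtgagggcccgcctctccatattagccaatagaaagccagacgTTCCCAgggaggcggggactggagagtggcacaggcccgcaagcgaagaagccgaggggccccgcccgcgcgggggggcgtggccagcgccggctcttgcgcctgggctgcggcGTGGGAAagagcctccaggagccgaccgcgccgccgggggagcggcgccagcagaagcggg
Heyl: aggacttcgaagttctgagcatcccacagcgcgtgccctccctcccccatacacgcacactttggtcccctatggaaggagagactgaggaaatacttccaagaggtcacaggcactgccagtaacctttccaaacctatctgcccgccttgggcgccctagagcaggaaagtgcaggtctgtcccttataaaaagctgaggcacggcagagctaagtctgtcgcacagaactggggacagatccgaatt
The Hes1 window held TGGGAA on the gene's strand at 123 to 118 and again at 109 to 104 bases upstream, the first of them as GTGGGAA. The Hey2 window held it at 60 to 55 bases upstream, also as GTGGGAA, and on the other strand at 175 to 170. No match lay in the Heyl window. Among the other members, Dll1 had 2 matches, while Notch1, Notch2, Notch3, Jag1 and both Jag2 windows had none. Over 33465 RefSeq windows of the same length, 22.1% held at least 1 match to TGGGAA, 2.71% held 2 or more and 5.27% held GTGGGAA, which contains TGGGAA and so overlaps it. A match is a run of letters and was not tested as a binding site.

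Library totals ranged from 31877265 to 43962783 counts, and 13856 genes passed the filter on low counts. All 8 chondrocyte markers listed were tested, with Col2a1 and Acan, the main collagen and proteoglycan of cartilage, at 5788 and 1006 FPKM in RP (the authors' values, scaled for gene length and library total). The defining markers of the labelled cell type were thus present, and they moved with the groups: all 8 fell with thrombin and all 8 rose from RPT to RPTi, their summed FPKM being between 5881 and 6349 in RPT, against 9583 to 9783 in RP and 14172 to 15302 in RPTi. Of the 8 endothelial markers, which summed to at most 2.5 FPKM in every library, Cdh5 had 0 counts in 8 libraries and 2 in the other, and Emcn had at most 1. Plvap (28 to 144 counts per library) and Flt1 (25 to 133) carried the sum, and both rose with thrombin and fell from RPT to RPTi. The defining pericyte marker Rgs5 had at most 2 counts per library. The 11 mural and smooth muscle markers summed to 492 to 535 FPKM (RP), 486 to 579 FPKM (RPT) and 1088 to 1350 FPKM (RPTi). Macrophage and blood markers summed to between 27.3 and 28.6 FPKM in RPT and to at most 16.9 FPKM elsewhere, with Cd14 and Cd68 the most abundant, and Ptprc, found on all white blood cells, had at most 4 counts per library. The sum of fibroblast markers was lowest in RPT (2102 to 2236 FPKM) and at least 3028 FPKM elsewhere, with Col1a1 at 2083 FPKM in RP, 1151 in RPT and 2096 in RPTi. Pdgfra, Thy1 and Pi16 of that list were lowest in RPTi instead, and all 3 fell from RP to RPTi.

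**Figure D1:**
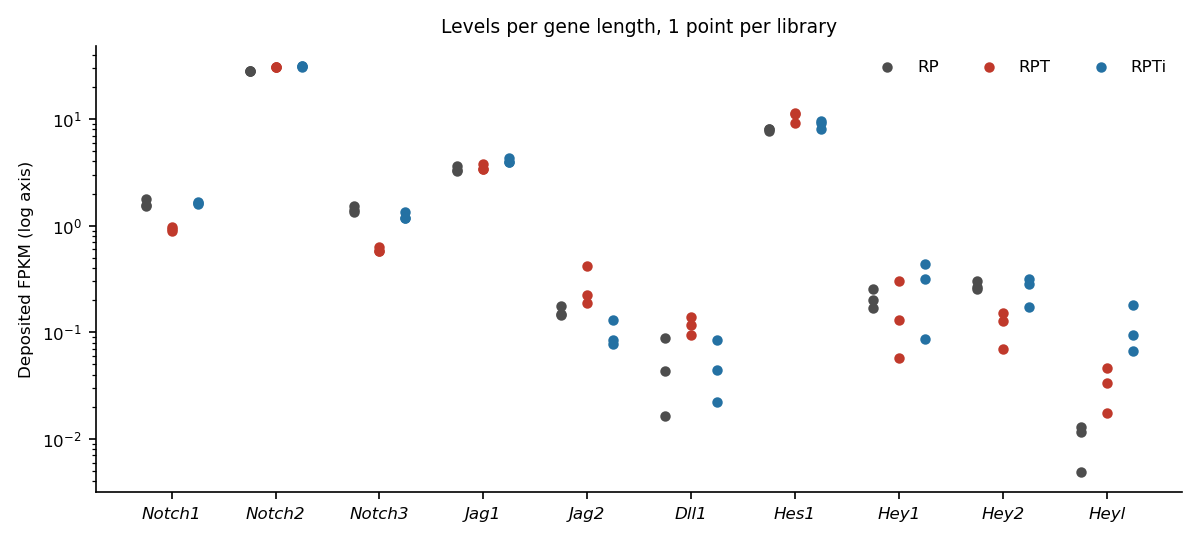
Deposited FPKM of the 10 genes on a log axis, with 1 point per library in RP (grey), RPT (red) and RPTi (blue). Notch2 lay highest of the receptors, Jag1 of the ligands and Hes1 of the targets in every library.

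Per gene length, 1 gene of each role held most of the signal. Notch2, at 28.3 ± 0.145 FPKM in RP (SD, n = 3), lay above 81.1% of tested genes by its mean over 9 libraries. It made up 90.3% ± 0.346 of the summed FPKM of the 3 receptors in RP, 95.3% ± 0.154 in RPT and 91.6% ± 0.249 in RPTi, and the libraries of RPT did not overlap with those of the other groups in this share. Notch1 and Notch3 were far lower in RP, at 1.62 ± 0.14 and 1.43 ± 0.0963 FPKM. Their ranges overlapped there, so that no order between them was seen.

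Jag1, a ligand of all 3 receptors, stood at 3.42 ± 0.197 FPKM in RP and gave 94.4% ± 0.802 of the summed FPKM of the 3 ligands. Jag2 followed at 0.156 ± 0.017 FPKM and Dll1 at 0.049 ± 0.036 FPKM. Of the targets, Hes1 stood at 7.92 ± 0.146 FPKM in RP, or 94.2% ± 0.426 of the summed FPKM of the 4 genes. Hey2 and Hey1 had 0.274 ± 0.0239 and 0.208 ± 0.0428 FPKM, and the highest Hey1 library (0.254) lay just under the lowest Hey2 library (0.257). Heyl, at 0.00974 ± 0.00425 FPKM, was the lowest of the 10 in RP.

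All 10 genes passed the filter of about 10 counts in at least 3 libraries, but not in the same way. Notch1, Notch2, Notch3, Jag1, Jag2 and Hes1 reached it in all 9 libraries and Hey2 in 8. Heyl passed only through its 3 RPTi libraries, Dll1 reached the limit in 3 RPT libraries and in 1 library of each other group, and Hey1 in 1 RPT and 2 RPTi libraries. Heyl, and Dll1 in part, were thus tested because of the group in which they were high, and the counts of members given below are no evidence about the pathway.

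With thrombin, Notch1 and Notch3 fell to about 0.565 and 0.414 of their plasma level, Hey2 fell as well and Hes1 rose, while Notch2, Jag1, Jag2, Dll1, Hey1 and Heyl did not pass. That is 1 rise and 3 falls among 10 genes, or 40% called, where 28.9% of all 13856 tested genes were called (adjusted p below 0.05; 13.6% rose and 15.2% fell). The median log2 fold change of the members was 0.07, against -0.00 over all tested genes. The RP and RPT libraries did not overlap in 8 of the 10 members, against 40.4% of all tested genes.

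With the inhibitor added to thrombin, Notch1, Notch3 and Hey2 were higher than with thrombin alone, Jag1 and Heyl were higher too, and Jag2 was lower. These 5 rises and 1 fall stand beside 41.5% of all genes called in this comparison (20.4% rose and 21.1% fell), and the median was 0.56 against -0.01. The libraries did not overlap in 8 members, against 50.8% of tested genes. Between RPTi and RP, Notch2, Jag1 and Heyl were higher and none of the 10 was lower by the test, with 24.2% of all genes called (11.9% rose and 12.3% fell), a median of 0.13 against -0.01, and no overlap in 5 members against 43.9% of tested genes. Over the 3 groups together 8 of 10 differed, where 46.7% of all genes did; Dll1 and Hey1 were the exceptions (adjusted p = 0.124 and 0.537). The comparisons share libraries, so their values are given side by side and not as separate support.

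**Figure D2:**
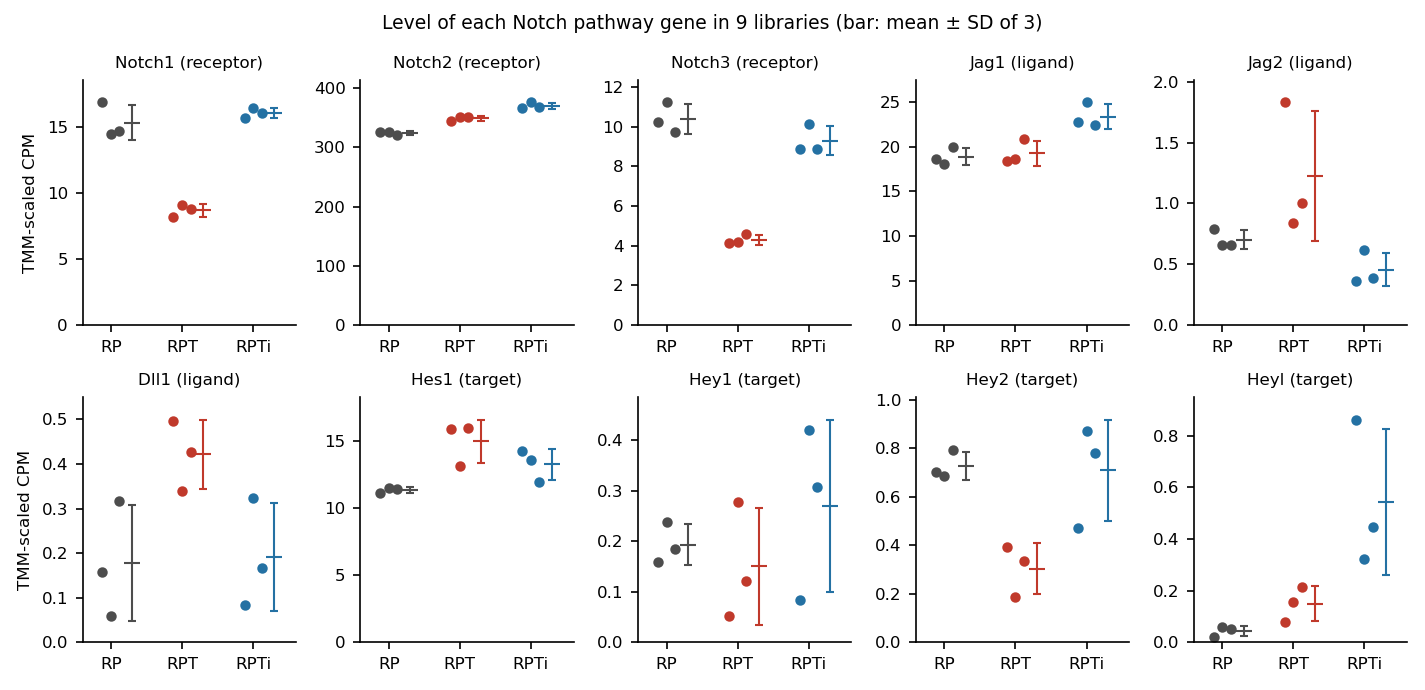
TMM-scaled CPM (counts per library total) of each gene in the 3 libraries of RP, RPT and RPTi, with the mean ± SD beside the points and each vertical axis starting at 0. The RPT libraries of Notch1, Notch3 and Hey2 lay below all others, and those of Hes1 lay above all RP libraries.

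Notch1 (ENSRNOG00000019322), a receptor with broad roles in cell fate decisions, had 16.9, 14.4 and 14.7 CPM in the RP libraries (CPM, the count per library total after TMM scaling). It had 8.16, 9.10 and 8.78 CPM in RPT and 15.7, 16.4 and 16.1 CPM in RPTi. All RPT libraries were below all others, and RP and RPTi overlapped. Notch1 fell 1.77-fold with thrombin (log2 fold change -0.82, SE 0.09, adjusted p = 2.23e-05). It was 1.85-fold higher with the inhibitor than with thrombin alone (0.89, SE 0.09, adjusted p = 5.54e-06). Between RPTi and RP the difference was 0.07 (SE 0.09, adjusted p = 0.633) on the log2 scale. The chondrocyte markers went the same way as Notch1, Notch3 and Hey2 with thrombin and from RPT to RPTi. With thrombin 8 of 8 fell, against 15.2% of all tested genes, and from RPT to RPTi 8 of 8 rose, against 20.4%. From RP to RPTi they differed: 6 of 8 markers rose, against 11.9% of all tested genes, while Notch1, Notch3 and Hey2 did not pass. The part of these markers in the results of Notch1, Notch3 and Hey2 was not tested. In bulk RNA, a smaller number of cells expressing a gene and less RNA per cell cannot be told apart.

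Notch3 (ENSRNOG00000004346), a receptor best known from vascular smooth muscle and pericytes, had 10.2, 11.2 and 9.72 CPM in RP and 4.13, 4.18 and 4.57 CPM in RPT. In RPTi it had 8.88, 10.1 and 8.85 CPM. As with Notch1, the RPT libraries were lowest without overlap. Notch3 fell 2.42-fold with thrombin (log2 fold change -1.27, SE 0.11, adjusted p = 3.15e-06) and was 2.16-fold higher in RPTi than in RPT (1.11, SE 0.11, adjusted p = 4.42e-06). RPTi was at -0.16 (SE 0.10, adjusted p = 0.286) relative to RP. Of 10 tested mural markers, 2 rose and 2 fell with thrombin, where Notch3 fell, and 6 rose and none fell from RPT to RPTi, where Notch3 rose. Their part in the Notch3 result was not tested.

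Notch2 (ENSRNOG00000018835), the receptor with most RNA here, moved little. It had 320 to 327 CPM in RP, 344 to 352 CPM in RPT and 366 to 376 CPM in RPTi, so the 3 groups were in that order with no overlap in TMM-scaled CPM. In deposited FPKM, RPTi replicate 1 (30.7) lay below all RPT libraries (30.8 to 30.9), so RPT and RPTi overlapped there. The rise from RP to RPTi passed (1.14-fold, log2 fold change 0.19, SE 0.05, adjusted p = 0.0109). Its 2 steps, 0.11 from RP to RPT (SE 0.05, adjusted p = 0.119) and 0.09 from RPT to RPTi (SE 0.05, adjusted p = 0.168), did not.

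Among the ligands, Jag1 (ENSRNOG00000007443) had 18.6, 18.1 and 19.9 CPM in RP, 18.4, 18.6 and 20.8 CPM in RPT, and 22.7, 25.0 and 22.4 CPM in RPTi. RP and RPT overlapped, with a log2 difference of 0.03 (SE 0.08, adjusted p = 0.84), and RPTi lay above both. Jag1 was 1.21-fold higher in RPTi than in RPT (0.28, SE 0.08, adjusted p = 0.0167) and 1.24-fold higher than in RP (0.31, SE 0.08, adjusted p = 0.0172). Both calls were close to the threshold. The first was lost without RPT replicate 1 (adjusted p = 0.071), without RPTi replicate 2 (0.072) and without scaling factors (log2 fold change 0.21, adjusted p = 0.0584). The second was lost without RP replicate 1 (0.0658), RP replicate 2 (0.0588) or RPTi replicate 2 (0.0794).

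Jag2 (ENSRNOG00000013927), the second Jagged ligand, was counted 35, 22 and 25 times in RP, 70, 27 and 33 times in RPT, and 13, 19 and 14 times in RPTi. In TMM-scaled terms this was 0.702 ± 0.0772, 1.22 ± 0.532 and 0.455 ± 0.138 CPM (SD, n = 3), and the wide spread of RPT came from its replicate 1 at 1.83 CPM. All RPTi libraries were below all RPT libraries, and the fall passed (2.71-fold, log2 fold change -1.44, SE 0.36, adjusted p = 0.00644). RPT stood at 0.80 against RP (SE 0.34, adjusted p = 0.0994), which did not pass, and at 0.39 without RPT replicate 1. Without that library the fall to RPTi was -1.02 (adjusted p = 0.0435).

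Dll1 (ENSRNOG00000059984), the Delta-like ligand of the set, had 7, 2 and 12 counts in RP, 19, 11 and 14 in RPT, and 3, 10 and 6 in RPTi. The scaled ratio of the summed counts was 2.35 for RPT to RP (95% exact Poisson interval 1.36 to 4.15) and 0.434 for RPTi to RPT (0.239 to 0.76). These intervals cover counting error only. The edgeR test, which takes in the spread between libraries, gave unadjusted p = 0.0477 for the first difference and 0.0599 for the second. After adjustment over all tested genes neither difference passed (log2 fold changes 1.21, SE 0.55, adjusted p = 0.123 and -1.16, SE 0.56, adjusted p = 0.118). The RPT libraries nevertheless did not overlap with those of either other group. Left-out libraries moved the first value between 0.84 and 1.86 (highest without RP replicate 3, adjusted p = 0.0549) and the second between -1.73 (without RPTi replicate 2, adjusted p = 0.0618) and -0.80 (without RPTi replicate 1). The sum of endothelial markers was also highest in RPT, at 1.93 to 2.5 FPKM against at most 1.18 elsewhere, as was that of macrophage markers. Plvap (log2 fold change 1.43, adjusted p = 0.00056), Flt1 (0.66, adjusted p = 0.0353), Cd14 (0.92, adjusted p = 5.65e-06) and Cd68 (0.59, adjusted p = 0.0155) rose with thrombin, and all 4 fell from RPT to RPTi. Csf1r, the only other macrophage marker tested, fell with thrombin instead (-0.94, adjusted p = 0.0449) and did not pass from RPT to RPTi (0.06, adjusted p = 0.897). Tek, the only other endothelial marker tested, passed in neither comparison (-0.51, adjusted p = 0.541 and 1.01, adjusted p = 0.155). Cdh5 had at most 2 counts per library and Ptprc at most 4. The part of the endothelial and macrophage markers in the values of Jag2, Dll1 and Hes1 was not tested.

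Hes1 (ENSRNOG00000001720), whose promoter is printed above, rose with thrombin. It had 11.1, 11.5 and 11.4 CPM in RP, 15.9, 13.1 and 15.9 CPM in RPT, and 14.2, 13.6 and 11.9 CPM in RPTi. All RPT libraries were above all RP libraries, and RPTi overlapped with RPT. The rise was 1.32-fold (log2 fold change 0.40, SE 0.10, adjusted p = 0.00918). The differences of RPTi from RPT (-0.18, SE 0.10, adjusted p = 0.174) and from RP (0.22, SE 0.10, adjusted p = 0.124) did not pass. The first of these passed without RPT replicate 2 (-0.26, adjusted p = 0.0474).

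Hey2 (ENSRNOG00000013364), a HEY-family repressor known from heart and arteries, moved in the opposite direction to Hes1 at much lower counts. It was counted 31, 23 and 30 times in RP, 15, 6 and 11 times in RPT, and 17, 27 and 28 times in RPTi. RPT lay below both other groups with no overlap. Hey2 fell 2.35-fold with thrombin (log2 fold change -1.23, SE 0.37, adjusted p = 0.0238) and was 2.28-fold higher in RPTi than in RPT (1.19, SE 0.37, adjusted p = 0.0207). RPTi and RP overlapped (-0.04, SE 0.33, adjusted p = 0.945). Leaving out RP replicate 1 (adjusted p = 0.0584), its replicate 3 (0.0689) or RPT replicate 2 (0.0884) ended the call of the fall. The rise was no longer called without RPT replicate 2 (0.0767), RPTi replicate 2 (0.0795) or RPTi replicate 3 (0.0653).

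Heyl (ENSRNOG00000015318), a HEY-family gene expressed in mural cells in other tissues, had 1, 2 and 2 counts in RP, 3, 5 and 7 in RPT, and 31, 10 and 16 in RPTi. The groups were in that order with no overlap, and replicate 1 of RPTi gave 31 of the 57 RPTi counts. From summed counts the scaled ratio of RPTi to RP was 12.8 (95% exact Poisson interval 5.19 to 41.0) and that of RPTi to RPT 3.82 (2.14 to 7.27), for counting error only. Both passed (log2 fold changes 3.55, SE 0.62, adjusted p = 0.00126 and 1.88, SE 0.52, adjusted p = 0.0114), though a fitted fold of so few counts depends on the prior count. Because the 3 RPTi libraries alone brought Heyl past the filter, these p-values are no independent support for a high level in RPTi. The second call was lost without RPT replicate 1 (1.55, adjusted p = 0.0557) and without RPTi replicate 1 (1.38, adjusted p = 0.081). RPT against RP did not pass (1.67, SE 0.75, adjusted p = 0.117). Beside this rise, the mural markers summed to 1088 to 1350 FPKM in RPTi as given above, with Acta2, the smooth muscle actin, and Tagln the most abundant. Of 10 tested mural markers, 7 rose and 1 fell from RP to RPTi, and 6 rose and 0 fell from RPT to RPTi. The fall was that of Abcc9 (log2 fold change -0.85, adjusted p = 0.0234), and Rgs5, which was not tested, had 0 counts in every RPTi library. The part of these markers in the Heyl result was not tested.

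Hey1 (ENSRNOG00000011593), the remaining HEY gene, had 7, 8 and 7 counts in RP, 2, 9 and 4 in RPT, and 3, 13 and 11 in RPTi. The groups overlapped in every comparison. The scaled ratio of RPT to RP was 0.763 with an interval of 0.368 to 1.54 for counting error only, so a difference of that size was not detectable at this depth. The fitted log2 fold changes were -0.37 (SE 0.68, adjusted p = 0.726), 0.84 for RPTi to RPT (SE 0.66, adjusted p = 0.336) and 0.47 for RPTi to RP (SE 0.62, adjusted p = 0.633). Left-out libraries moved the value for RPTi to RPT between 0.40 (without RPTi replicate 2; 0.41 without RPT replicate 1) and 1.61 (without RPT replicate 2).

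**Figure D3:**
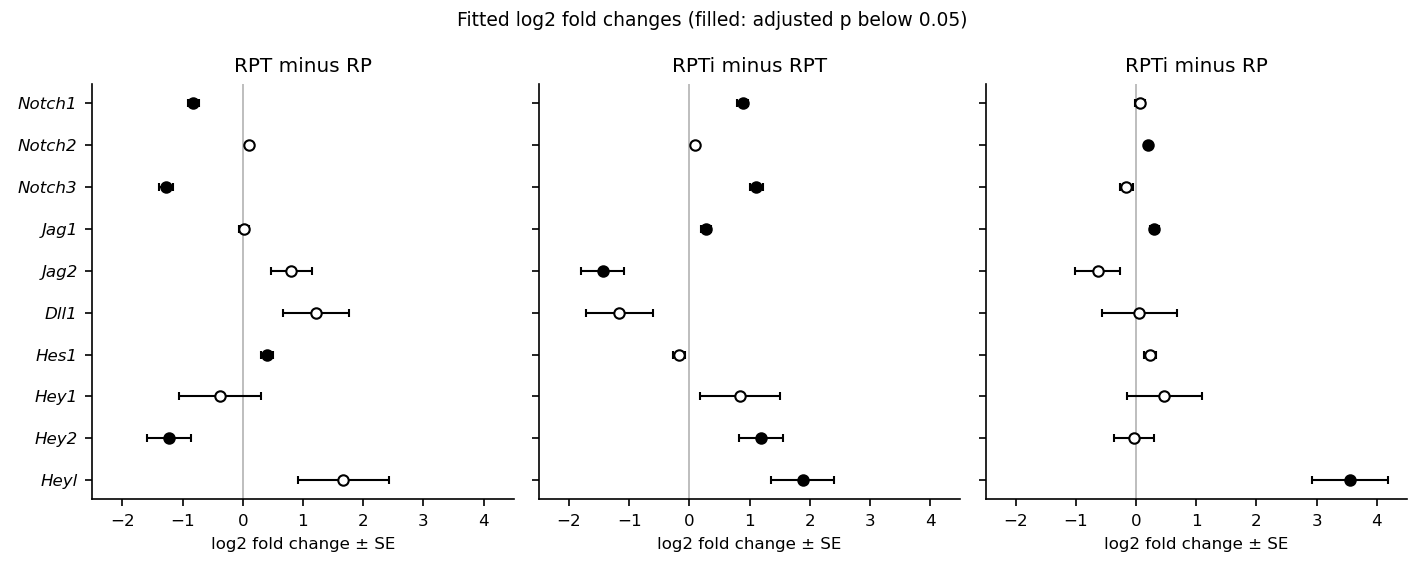
Fitted log2 fold changes of the 10 genes with their SE in the 3 comparisons; filled points passed at an adjusted p below 0.05. In RPT minus RP the filled points are Notch1, Notch3 and Hey2 below 0 and Hes1 above, and the genes with under 15 counts in most libraries have the widest bars.

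The other genes of the pathway were read from 7 lists of 64 genes, of which 58 had a row and 53 were tested. Dll4, Aph1b, Maml3, Ep300, Hes3 and Hes5 had no matching row and are not analysed here, and Dll3, Mfng, Dtx1, Nrarp and Hes2 were below the filter. With thrombin 2 of the 53 rose and 12 fell (26.4% called, against 28.9% of all genes). From RPT to RPTi 13 rose and 9 fell (41.5%, against 41.5%), and from RP to RPTi 6 rose and 10 fell (30.2%, against 24.2%). The medians were -0.09, 0.05 and -0.05. These shares stand close to those of all genes in the first 2 comparisons, and the changes below are those of single genes.

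Rbpj, the DNA-binding protein on which all Notch receptors converge, had the largest fall of the lists from RPT to RPTi. It had 152, 144 and 162 CPM in RP, 199, 189 and 237 CPM in RPT, and 86.0, 80.5 and 91.2 CPM in RPTi. The 3 groups did not overlap, with RPT highest and RPTi lowest. Rbpj rose 1.36-fold with thrombin (log2 fold change 0.45, SE 0.09, adjusted p = 0.0018). It was 2.42-fold lower in RPTi than in RPT (-1.28, SE 0.09, adjusted p = 1.42e-07) and 1.78-fold lower than in RP (-0.83, SE 0.09, adjusted p = 1.94e-05). The table also lists Rbpjl2, an Rbpj-like gene with at most 9 counts in a library. Reads fitting both genes could have been left uncounted or divided between them. The coactivator genes moved less: Maml1 was at -0.04 with thrombin (SE 0.06, adjusted p = 0.685), and its 1.12-fold rise in RPTi against RPT (adjusted p = 0.0448) was lost when any 1 library other than RPT replicate 2 was left out. Of 6 tested genes of the nuclear complex, 1 rose and 1 fell with thrombin, 1 rose and 3 fell from RPT to RPTi, and none rose and 3 fell from RP to RPTi. That is 33.3%, 66.7% and 50% called, against 28.9%, 41.5% and 24.2% of all tested genes.

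Of the 3 tested relatives of receptors and ligands, Dlk1 was the most abundant, at 309 ± 24.8 FPKM in RP. It encodes a Delta-like protein that lacks the receptor-binding domain of Notch ligands. It rose 1.74-fold from RPT to RPTi (log2 fold change 0.80, SE 0.08, adjusted p = 6.57e-06). Its fall with thrombin (-0.24, SE 0.08, adjusted p = 0.0466), to 266 ± 27.5 FPKM, was lost without any 1 library other than RP replicate 3 or RPT replicate 2. The related Dlk2 fell 2.37-fold with thrombin (-1.24, SE 0.31, adjusted p = 0.00906) and rose 2.34-fold from RPT to RPTi (1.22, SE 0.31, adjusted p = 0.00671). Notch4, the receptor of endothelium, had 8 to 35 counts per library. Its rise from RP to RPTi (1.24, SE 0.37, adjusted p = 0.0288) did not pass without RP replicate 2 (0.083), RP replicate 3 (0.116), RPTi replicate 2 (0.0635) or RPTi replicate 3 (0.12).

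Of the 7 tested genes for receptor glycosylation, none passed with thrombin, where 28.9% of all tested genes were called. Lfng, a Fringe sugar transferase that alters which ligands a receptor answers to, fell from RPT to RPTi by 1.46-fold (-0.55, SE 0.11, adjusted p = 0.0012), while the protease gene Furin, which cleaves the receptors during maturation, rose 1.21-fold (0.28, SE 0.06, adjusted p = 0.00354). Of the 7 tested cleavage genes, 1 rose and 2 fell from RPT to RPTi (42.9% called, against 41.5% of all tested genes). The protease gene Adam10, which makes the ligand-dependent cut, had 37.7, 37.6 and 48.0 CPM in RP, 46.8, 44.7 and 41.5 CPM in RPT, and 28.3, 28.6 and 26.2 CPM in RPTi. RP and RPT overlapped (0.11, SE 0.10, adjusted p = 0.442) and RPTi lay below both (log2 fold change against RPT -0.68, SE 0.10, adjusted p = 0.000115). Its relative Adam17 was lower in RPTi than in RPT as well (-0.34, SE 0.09, adjusted p = 0.00653), and the gamma-secretase subunit gene Psenen was 1.31-fold higher (adjusted p = 0.00326).

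Of 14 tested genes for ligand ubiquitination and receptor turnover, 5 fell and none rose with thrombin, and 5 rose and 1 fell from RPT to RPTi. That is 35.7% and 42.9% called, against 28.9% and 41.5% of all tested genes. Numbl, a relative of the Notch inhibitor Numb, fell 1.45-fold with thrombin (-0.54, SE 0.09, adjusted p = 0.000634) and rose 1.46-fold from RPT to RPTi (0.55, SE 0.09, adjusted p = 0.000317). The ubiquitin ligase gene Neurl1 fell 1.80-fold with thrombin (-0.85, SE 0.14, adjusted p = 0.000482). Dtx4, of the Deltex ligases that bind the receptor's inner part, had 1.74 ± 0.0497 FPKM in RP, 1.12 ± 0.152 FPKM in RPT and 2.81 ± 0.0767 FPKM in RPTi. It had the largest rise of this list from RPT to RPTi, 2.62-fold (1.39, SE 0.15, adjusted p = 8.98e-06).

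Corepressors that act with RBPJ or with HES proteins were called in 3 of 14 cases with thrombin, all falls, and from RPT to RPTi 2 rose and 2 fell. That is 21.4% and 28.6% called, below the 28.9% and 41.5% of all tested genes. The Groucho-type gene Tle4 fell 1.33-fold with thrombin (-0.41, SE 0.11, adjusted p = 0.0126) and rose 1.57-fold from RPT to RPTi (0.65, SE 0.11, adjusted p = 0.000359). Tle1 moved alike, at -0.33 (SE 0.09, adjusted p = 0.0128; 0.0603 without RP replicate 1) and 0.59 (SE 0.09, adjusted p = 0.000132). Its relative Tle3 and the corepressor gene Ctbp2 did not pass with thrombin and were 1.27-fold and 1.41-fold lower in RPTi than in RPT (adjusted p = 0.00055 and 0.000294). Hes6, a HES gene whose protein opposes HES1, fell 1.33-fold with thrombin (-0.41, SE 0.11, adjusted p = 0.0149; 0.0623 without RP replicate 2) and rose from RPT to RPTi (0.68, SE 0.11, adjusted p = 0.000297).

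**Figure D4:**
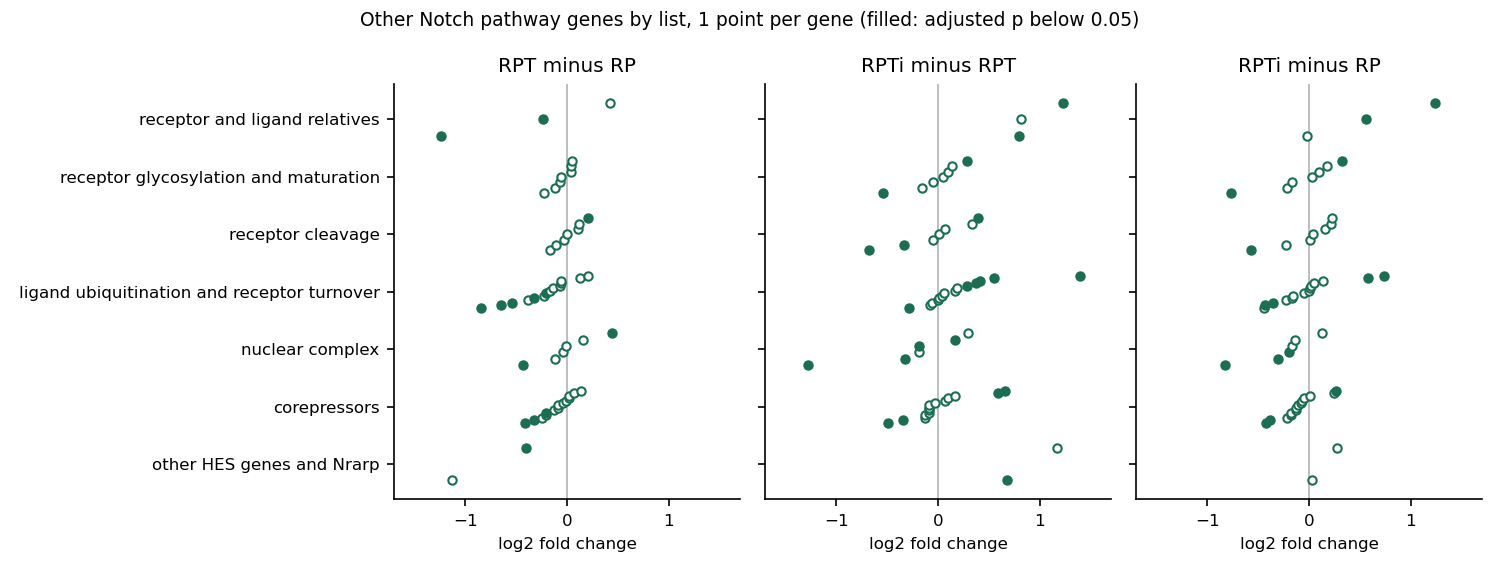
Log2 fold changes of 53 other Notch pathway genes in 7 lists for the 3 comparisons, 1 point per gene, filled where the adjusted p was below 0.05. The lowest filled point from RPT to RPTi is Rbpj at -1.28 and the highest is Dtx4 at 1.39.

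For the members with enough counts, the gene with the most similar profile was sought among 9295 genes outside the lists with a mean of at least 5 CPM, by Pearson's r of log2 CPM over the 9 libraries. The measure includes the differences between the 3 groups, takes no account of the size of a change and describes these libraries. The nearest gene was Dnmt3a, a DNA methyltransferase, for Notch1 (r = 0.994), and Slit3, a secreted guidance protein, for Notch3 (r = 0.993). It was Nfil3 for Notch2 (r = 0.986), the myosin gene Myo10 for Jag1 (r = 0.967) and the RNA polymerase I subunit gene Polr1e for Hes1 (r = 0.959). Mean levels of Dnmt3a were 34.4 CPM in RP, 23.2 in RPT and 35.6 in RPTi, and those of Polr1e were 12.1, 16.4 and 13.8 CPM. Nfil3 had means of 7.76, 14.6 and 20.9 CPM, a far larger relative change than that of Notch2, at 324, 349 and 371 CPM.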

How the data were processed

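The deposited table gives, for each Ensembl gene and each of 9 libraries, whole read counts made by the authors on the build Rnor_6.0, and FPKM computed by the authors. Deposited FPKM times library total over count was constant per gene, within a relative 3.4e-13 over 17671 genes. Tools listed, without roles, per the submitters' processing notes are HTSeq 0.11.2, HISAT2 and DESeq2 1.26.0. The strand setting and annotation release were not given in the sources used here, so antisense and overlapping reads cannot be told apart.

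Counts were filtered (filterByExpr, minimum count 10, minimum total 15; 0.0259% of counts removed), scaled by TMM and fitted with 1 coefficient per group over all 9 libraries (edgeR 4.0.16, glmQLFit and glmQLFTest, R 4.3.3), with Benjamini-Hochberg adjustment over 13856 genes. All adjusted p-values are from this test unless another tool is named. SE is the absolute log2 fold change over the root of F, and the prior count was 0.125. Levels between genes are compared in FPKM, changes in counts or CPM. A single count was worth 0.0226 to 0.0323 CPM, depending on the library.

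The members, lists and tests were chosen with earlier results of these data known. Named were all members, up to 2 called genes per list, direction and comparison, and Rbpj, Maml1, Adam10, Lfng, Dlk1, Notch4 and Dll4; not all are printed, and 1 result is not reported here. Older symbols were matched through RefSeq names (GRCr8). Alternatives were DESeq2 size factors or no scaling factors, DESeq2 1.42.0, other filters, limma 3.58.1 on log2(FPKM + 1), 2-group fits, a replicate block and leaving out each library.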

Additional observations from a re-analysis of the deposited data

How the results depend on the processing

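The calls of Notch1, Notch3 and Hes1 with thrombin, and of Notch1, Notch3 and Jag2 from RPT to RPTi, passed under every alternative run for them (17 each, 16 for Jag2), as did the rise of Notch2 from RP to RPTi. Of 30 member results, 18 kept direction and call throughout, 8 changed call somewhere and 4, none of them called, changed sign.

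With at least 1 CPM in 3 libraries, which left 5 members, 3 were called from RPT to RPTi, where 44.7% of 12229 genes were called, and 5 over the 3 groups. On log2(FPKM + 1), which shrinks low genes, 1 member was called from RP to RPTi, against 24.1% of all genes, and 5 over the 3 groups. Jag1 (0.16 against RPT, 0.20 against RP) and Heyl (0.11 and 0.14) did not pass there. No share of all genes over the 3 groups was computed under either setting.

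The sign changed for Dll1 in RPTi against RP without scaling factors (-0.00229) and when single libraries were left out (-0.52 to 0.70). Leaving out libraries also changed it for Hey2 in RPTi against RP (-0.21 to 0.18), Jag1 in RPT against RP (-0.032 to 0.068) and Hey1 in RPT against RP (-1.14 to 0.061).

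Alternatives for the other pathway genes were chosen after seeing the data. Their count of calls with thrombin was 9 in a 2-group fit and 7 to 15 when 1 library was left out, lowest without RP replicate 1; over all genes the 2-group fit called 24.6% and the fit without RP replicate 1 called 20.6%, against 28.9%. From RP to RPTi it was 10 to 20, lowest without RP replicate 1 or RPTi replicate 2, where 17.1% and 17.6% of all genes were called, against 24.2%. Without scaling factors 38.4% of calls from RPT to RPTi were rises, against 49.2%, and 36.6% against 49.1% from RP to RPTi; on log2(FPKM + 1) the shares were 38.8% and 38.9%.

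Taken over all tested genes, deviations of same-numbered libraries were at most weakly correlated (r from -0.114 to 0.124), and 3 of 9 libraries correlated best with their own number. The numbers were therefore not treated as pairs. With a replicate block, 5 members were called with thrombin, Notch2 being added (0.11, adjusted p = 0.0362), while the share of all genes called there went from 28.9% to 36.6%. From RP to RPTi, 27 other pathway genes were called against 16, while the share of all genes went from 24.2% to 33.8%. From RPT to RPTi that share went from 41.5% to 48.3%, so the block fit called more genes in every comparison. At this depth Dll1, Hey1 and Heyl, with 1 to 31 counts per library, could show only large differences.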
